A study of Danio rerio with 12 samples.

Results

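Melanin synthesis and neural crest genes of the zebrafish embryo were followed across 12 expression arrays of whole embryos. The set was 10 named genes: the melanin enzymes tyr, tyrp1b and dct, the melanosome proteins pmela, slc24a5, slc45a2 and oca2, the transcription factors mitfa and sox10, and the crest marker crestin. Every probe whose RefSeq accession belonged to one of these symbols was taken. That gave 17 of the 43603 non-control probes and 8 of the 14016 genes that could be named. No probe of dct or oca2 was matched here, so these 2 genes were not analysed. A probe was tested if, in 1 group or more, none of the 3 arrays lacked a signal well above background. This held for 16 of the 17 probes, the exception being the dimmer of the 2 tyr probes.

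The embryos were wild-type AB zebrafish, reared at 28.5 °C and each morpholino, an antisense oligonucleotide that blocks a chosen transcript, was injected in an amount of 0.25 to 1.0 pmol at the 1-4 cell stage. Of the 4 groups, 2 received a control morpholino and were sampled at 6 h or 24 h after fertilization, and 2 received PCSK7 and p53 morpholinos together and were sampled at the same times. PCSK7 is a proprotein convertase, an enzyme that cuts precursor proteins into their active form. No group received either of these 2 reagents alone, so their effects cannot be told apart. Each group had 3 arrays, each from the RNA of a pool of 18 to 35 whole embryos. The labels do not say that the replicates were separate clutches, and the spread that enters each p-value is that between these samples, which may be technical. No probe could be assigned to pcsk7, so the knockdown itself was not checked.

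Melanin is made in pigment cells inside melanosomes, organelles built on fibres of the Pmel protein. Tyrosinase (tyr) carries out the first and limiting step from tyrosine, and Tyrp1 and Dct act on later intermediates. In the zebrafish embryo these genes are used by melanophores, which arise from the neural crest, and by the retinal pigment epithelium, which arises from the neural tube. Neural crest cells form at the border of the neural plate, migrate through the body and also give rise to xanthophores, iridophores, peripheral neurons, glia and parts of the head skeleton. Sox10 is required in the non-skeletal crest and switches on mitfa, which in turn drives the melanin genes.

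Values are given as relative signal, which is the processed signal of a probe as a percentage of the 75th percentile of all non-control probes on the same array. That percentile lay between 403 and 513 intensity units on the 6 h control arrays, 634 and 730 on the 6 h PCSK7 and p53 arrays, 695 and 993 on the 24 h control arrays, and 1022 and 1087 on the 24 h PCSK7 and p53 arrays. Arrays of 1 group correlated with r between 0.993 and 0.9962 across probes. Relative signals of different probes are not on 1 scale, so levels of different genes were not ranked. A probe was called changed when the adjusted p of the limma fit over all 36741 tested probes was under 0.05. Whether the arrays of 2 groups overlapped is given as a description only, since the share of all probes without overlap was not counted. The control arrays lay on 3 slides and the PCSK7 and p53 arrays on 2 others, scanned in a separate session and read with a later version of the scanner software and a later annotation release, so slide, session, software and morpholinos cannot be told apart. In whole embryos, fewer cells of a type and less RNA per cell cannot be told apart either.

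At 24 h, 4 of the 8 measured genes were lower in the embryos with PCSK7 and p53 morpholinos, namely the enzymes tyr and tyrp1b and the melanosome genes pmela and slc24a5. They stood at 39.3% to 49.6% of the control level on their brightest probe. The crest marker crestin was higher on 1 of its 6 probes, and slc45a2, mitfa and sox10 did not pass the test. By probe, 5 of 16 were lower, 1 was higher and 10 did not pass. Among all tested probes, 45.7% were called at 24 h, with 25.1% lower and 20.6% higher. The median log2 change over the 8 genes was -0.71, against -0.03 over the 12854 named genes measured. The set was chosen with earlier results of these data known, so this contrast is a description only. The 4 genes were called lower in the other settings tried with 1 exception. Under normexp background correction without a cap, whose fit failed on 3 arrays, no probe at all was called at 24 h (719 had an unadjusted p under 0.05), although the signs of these 4 genes stayed negative.

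The fall in tyr was seen on a probe of low signal. As described below, the relative signal of this probe did not rise between 6 h and 24 h in the controls. The relative signal of tyr (probe A_15_P196231) was 4.62, 5.55 and 5.42% on the 24 h control arrays and 1.94, 2.14 and 2.30% on the PCSK7 and p53 arrays. The groups did not overlap, and all 6 arrays were well above background. The tyr signal was 41.0% of control, a log2 change of -1.29 ± 0.10 (SE, n = 3 and 3 arrays, limma adjusted p = 1.09e-05), and 1.97% of all tested probes fell by at least as much. The dimmer tyr probe, A_15_P132391, was above background on only 1 of the 3 control arrays at 24 h and on none of the PCSK7 and p53 arrays. It read 1.07, 1.51 and 1.48% in the controls and 0.441, 0.644 and 0.571% in the other group, also without overlap.

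The enzyme tyrp1b, which acts after tyrosinase, had a bright probe at 24 h. Its relative signal (A_15_P110475) was 661.7, 633.6 and 614.0% on the control arrays and 180.9, 285.7 and 302.5% on the PCSK7 and p53 arrays. All 3 control arrays lay above all 3 others, and replicate 1 of the PCSK7 and p53 group lay well below its 2 companions. The level was 39.3% of control, a log2 change of -1.35 ± 0.17 (SE, n = 3 and 3, limma adjusted p = 0.000162). Without that replicate, the tyrp1b change was -1.11 ± 0.09 and was still called.

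The melanosome scaffold gene pmela encodes the protein that forms the fibres on which melanin is laid down. Its brighter probe (A_15_P154091) read 468.3, 554.6 and 509.2% on the control arrays at 24 h and 218.8, 268.7 and 274.0% on the PCSK7 and p53 arrays. The groups did not overlap, and the pmela level was 49.6% of control (log2 change -1.01 ± 0.11, SE, n = 3 and 3, limma adjusted p = 7.42e-05). The dimmer pmela probe (A_15_P130456) read 14.5, 16.4 and 13.4% in the controls and 6.74, 8.19 and 9.12% in the other group. It lay in the same direction without overlap, but its log2 change of -0.89 ± 0.37 did not pass the test (limma adjusted p = 0.0712). The error comes from all 12 arrays, and this probe was below background on all 6 arrays at 6 h, where its readings scattered most. It passed in a fit of only the groups compared (adjusted p = 0.00294) and without replicate 1 of the 6 h controls (0.00986). It also passed under the capped normexp correction described below (adjusted p = 0.00107) and with the replicate number as a block (0.0315).

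The gene slc24a5 encodes a cation exchanger of melanosomes, and its loss gives the golden zebrafish its pale pigment. Its brighter probe (A_15_P206071) read 16.7, 16.9 and 16.2% on the control arrays and 6.01, 7.25 and 7.04% on the PCSK7 and p53 arrays. That is 40.6% of control, a log2 change of -1.30 ± 0.09 (SE, n = 3 and 3, limma adjusted p = 6.36e-06). The second slc24a5 probe (A_15_P664196) read 8.87, 9.26 and 8.24% in the controls and 2.52, 2.92 and 3.10% in the other group, a log2 change of -1.63 ± 0.23 (limma adjusted p = 0.000368). Both slc24a5 probes separated the groups without overlap, and both fell.

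The transporter slc45a2, which acts in the melanosome membrane and is mutated in the zebrafish albino strain, showed a smaller separation. Its probe (A_15_P114670) read 46.7, 47.2 and 44.4% in the controls at 24 h and 29.0, 38.4 and 37.9% with the PCSK7 and p53 morpholinos. The groups did not overlap, but the slc45a2 difference of -0.40 ± 0.34 (log2, SE) did not pass (limma adjusted p = 0.358), with a 95% interval from -1.15 to 0.35. It passed in a fit of only the groups compared (adjusted p = 0.0318) and without replicate 1 of the 6 h controls (0.0433), and 5 genes of the set were then called lower. The regulator mitfa, without which zebrafish form no body melanophores, read 17.5, 17.1 and 15.1% in the controls and 12.9, 13.7 and 15.4% in the other group on probe A_15_P226116. Here the groups overlapped, and the mitfa change of -0.24 ± 0.29 did not pass (limma adjusted p = 0.534); its 95% interval, from -0.90 to 0.41, includes falls close to those of the melanin genes. For both genes the error again carries the scatter of readings near background at 6 h.

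In the group with PCSK7 and p53 morpholinos at 24 h, replicate 1 was the lowest array for all 9 probes of tyr, tyrp1b, pmela, slc24a5, slc45a2 and mitfa. Without it, the changes of the 5 called probes ranged from -0.91 (pmela) to -1.55 (slc24a5, second probe), and all 5 were still called. For the brighter sox10 probe and all 6 crestin probes the lowest array of the group was replicate 3 instead. How often all tested probes were lowest on replicate 1 was not counted. The 9 probes include more than 1 for tyr, pmela and slc24a5, and the dimmer tyr probe was below background on every array of this group.

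**Figure D1:**
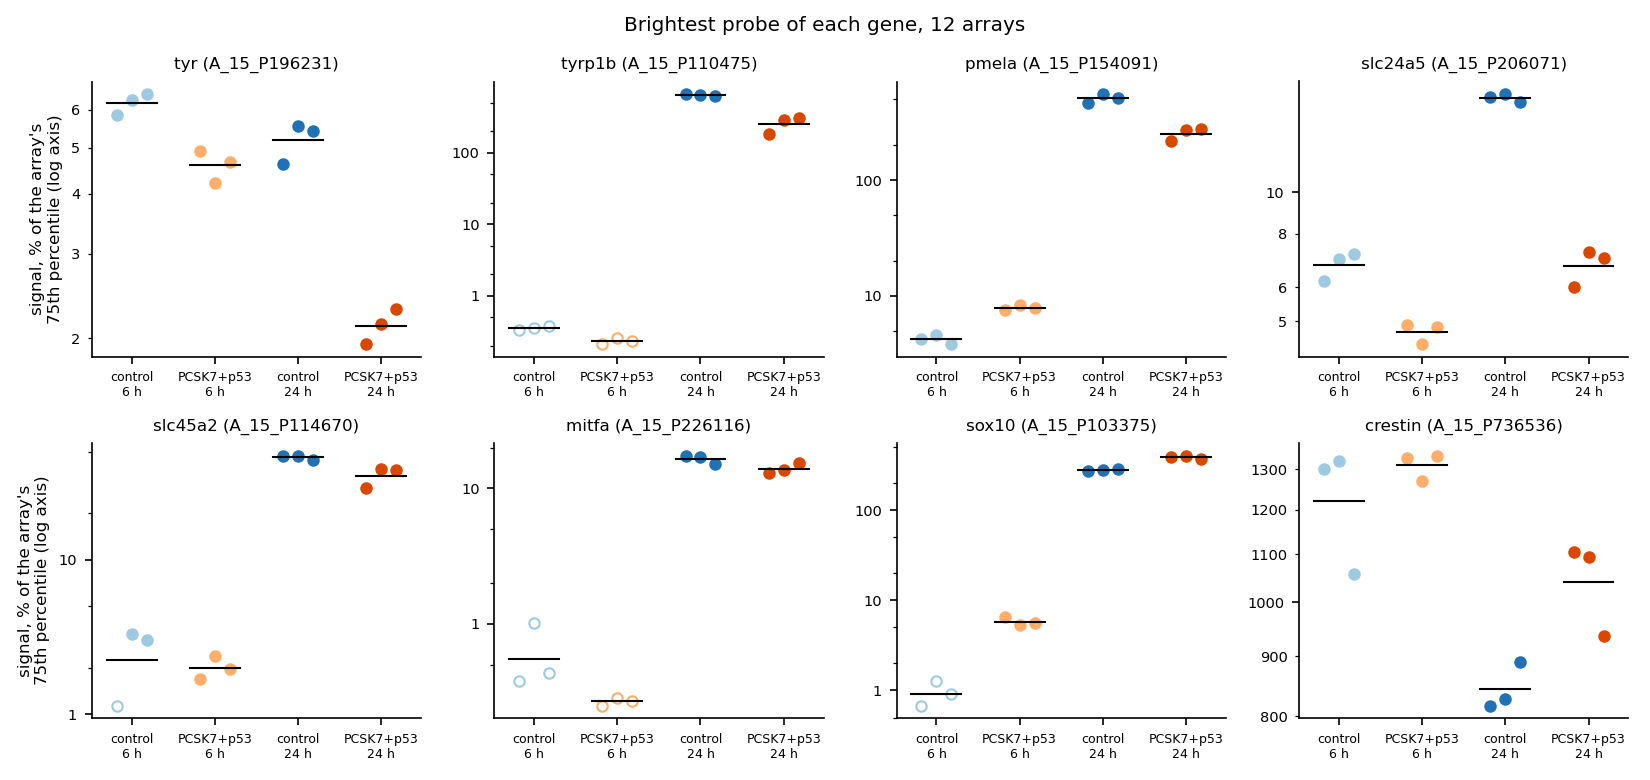
Relative signal of the brightest probe of each gene (% of the array's 75th percentile, log axis) on 12 arrays, 3 in each group. Filled points were well above background, open points were not, and lines are means of the log values. At 24 h the PCSK7 and p53 arrays lie below all controls for tyr, tyrp1b, pmela, slc24a5 and slc45a2, overlap them for mitfa and lie above them for sox10 and crestin. The share of all probes without overlap was not counted, and slc45a2 and sox10 did not pass the test.

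The 2 neural crest genes did not follow the melanin genes. For sox10, the transcription factor needed for pigment cells, neurons and glia of the crest, the brighter probe (A_15_P103375) read 273.2, 274.7 and 283.5% in the controls at 24 h. It read 384.8, 402.6 and 369.5% with the PCSK7 and p53 morpholinos, so every one of these arrays lay above every control. The log2 difference of 0.48 ± 0.18 (SE, n = 3 and 3) did not pass the test (limma adjusted p = 0.0572). The second sox10 probe (A_15_P658766) read 7.65, 8.16 and 6.90% in the controls and 10.73, 10.55 and 10.69% in the other group, again without overlap. Its difference of 0.50 ± 0.32 did not pass either (limma adjusted p = 0.228). The error carries the scatter of its readings at 6 h, where this probe was below background. In a fit of only the groups compared the second probe was called higher (adjusted p = 0.00363). The same held without replicate 1 of the 6 h PCSK7 and p53 arrays (adjusted p = 0.000824). The brighter sox10 probe was called higher under several other settings, among them a fit of only the groups compared (adjusted p = 0.00207), and its adjusted p over all alternatives ran from 0.00207 to 1.

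Crestin is used as a marker of most premigratory and migrating crest cells in zebrafish. Its 6 probes gave different answers. They were matched to the gene by the RefSeq accession of the later of the array's 2 annotation releases. Their identifiers in the earlier release came from other sources and were not looked up. The probe with the highest signal (A_15_P736536) read 816.2, 827.0 and 889.9% in the controls at 24 h and 1105, 1093 and 936.0% with the PCSK7 and p53 morpholinos. These groups did not overlap, and the log2 change was 0.30 ± 0.10 (SE, n = 3 and 3, limma adjusted p = 0.0277). The call was lost when any of 4 single arrays was left out (replicates 1 and 2 of either 24 h group, adjusted p from 0.0753 to 0.0929) and when the gene's probes were averaged (change 0.11, adjusted p = 0.595).

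The other 5 crestin probes did not pass at 24 h. Probe A_15_P731721 lay the other way without overlap, at 91.9, 93.0 and 96.5% in the controls and 78.8, 87.5 and 62.5% in the other group (log2 change -0.31 ± 0.12, limma adjusted p = 0.0575). Probe A_15_P728916 lay higher with overlap, at 39.5, 45.0 and 40.7% against 58.4, 64.7 and 42.5% (0.38 ± 0.15, adjusted p = 0.0662). The changes of the remaining 3 crestin probes were -0.13, 0.02 and 0.41, with adjusted p from 0.533 to 0.905. Probes of crestin also differed in their course over time, described below, and whether they also bind copies of related sequence was not tested.

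**Figure D2:**
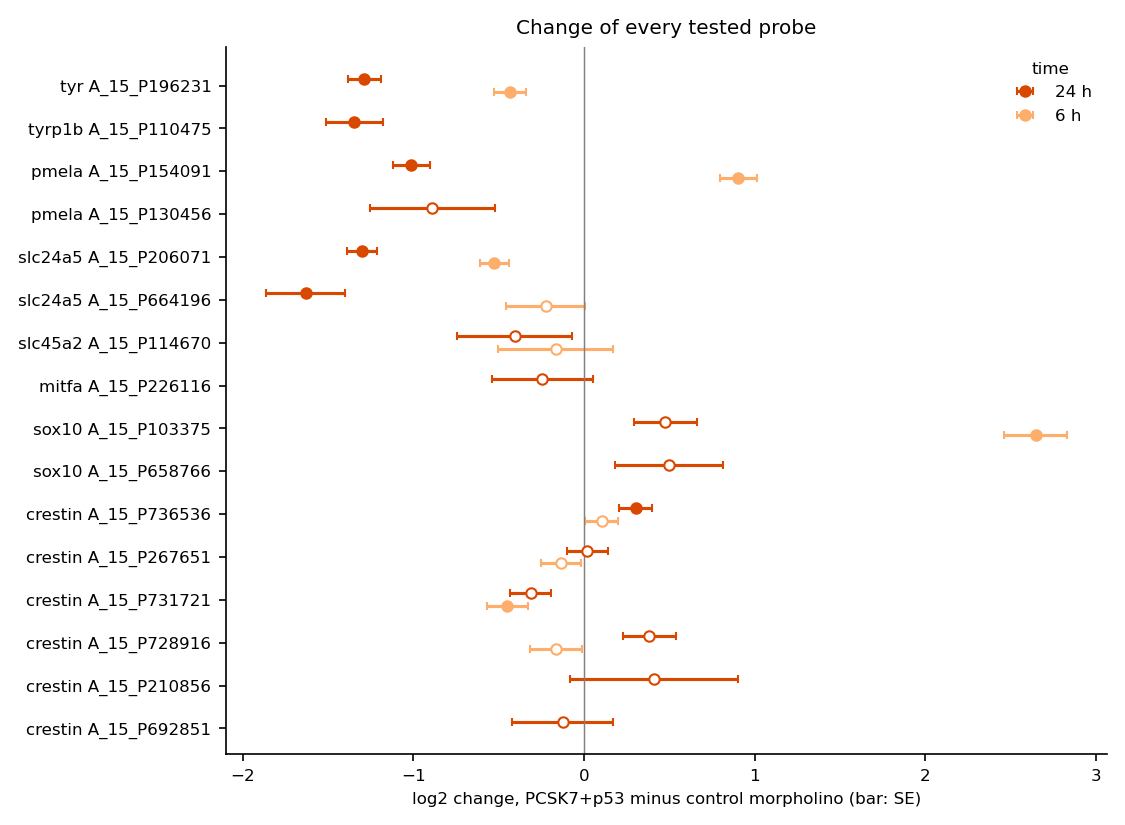
Log2 change of each probe of the set, PCSK7 and p53 morpholinos minus control morpholino, at 24 h (dark) and 6 h (light), with bars of 1 SE from the limma fit. Filled points passed the test and probes below background at 6 h are shown at 24 h only; tyr, tyrp1b, pmela and slc24a5 lie near or below -1 at 24 h, and pmela and sox10 lie to the right at 6 h.

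At 6 h, during gastrulation and before pigment cells exist, 10 probes of 6 genes had signals well above background on every array of 1 group or more. Of these probes, 2 were higher with the PCSK7 and p53 morpholinos (pmela and sox10), 3 were lower (tyr, slc24a5 and 1 crestin probe) and 5 did not pass. Among all tested probes, 59.6% were called at 6 h, with 28.4% higher and 31.2% lower. The probes of tyrp1b and mitfa, the dimmer pmela and sox10 probes and 2 crestin probes were not above background on any 6 h array, so no change is given for them. Readings of the other genes at 6 h were low too, and crestin was the exception on 2 of its probes.

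For tyr, the probe A_15_P196231 already gave 5.85, 6.29 and 6.47% in the 6 h controls and 4.92, 4.22 and 4.66% with the PCSK7 and p53 morpholinos. The groups did not overlap, and the change was -0.43 ± 0.10 (log2, SE, n = 3 and 3, limma adjusted p = 0.00308). Before scaling, the mean tyr signals were 28.44 units in the controls and 31.17 units in the other group. The tyr signal at 6 h was thus lower only after scaling between arrays. The brighter slc24a5 probe read 6.22, 6.99 and 7.18% in the controls and 4.90, 4.42 and 4.84% in the other group (-0.52 ± 0.09, limma adjusted p = 0.000524), also without overlap. Its mean signals before scaling were 31.17 units in the controls and 32.04 units in the other group, so they were not lower. The second slc24a5 probe did not pass at 6 h (-0.22 ± 0.23, adjusted p = 0.427), nor did slc45a2 (-0.17 ± 0.34, adjusted p = 0.694). The slc45a2 readings were 1.14, 3.29 and 3.01% in the controls, the first of them below background, and 1.69, 2.39 and 1.98% in the other group. Without that control array slc45a2 was called lower (-0.66, adjusted p = 0.0068), as it was under the capped normexp correction described next (-0.54, adjusted p = 0.00198).

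The brighter pmela probe ran the other way at 6 h. It read 4.27, 4.60 and 3.81% in the controls and 7.48, 8.41 and 7.81% with the PCSK7 and p53 morpholinos, without overlap. The pmela change was 0.91 ± 0.11 (log2, SE, n = 3 and 3, limma adjusted p = 6.51e-05). This direction depended on the processing. Modelling the background by normexp, with 50 units added to every signal and the local background capped at 100 units, gave -0.06 (adjusted p = 0.679). Without the cap it gave -0.81 (adjusted p = 0.44). The mean pmela signals at 6 h were 19.22 units in the controls and 53.91 units in the other group. The effects of the background model and of the added 50 units therefore cannot be told apart. Averaging the 2 pmela probes gave 0.28 (adjusted p = 0.245).

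The brighter sox10 probe read 0.676, 1.28 and 0.909% in the 6 h controls, all below background, and 6.48, 5.34 and 5.58% with the PCSK7 and p53 morpholinos, all above it. Taking for each control array the lowest signal well above background, the sox10 signal was at least 3.84-fold higher (limma adjusted p = 2.1e-06). Folds given as "at least" here and below are not strict limits, since some probes above that lowest signal still failed the background flag. On replicate 3 of the 6 h controls, snai1b read 1.948% and failed, while the lowest signal that passed was 1.56%. The second sox10 probe was below background on all 6 of these arrays. The sox10 call at 6 h was lost under the capped normexp correction (log2 change 0.04, adjusted p = 0.775), and without the cap the direction turned (-0.79, adjusted p = 0.443). The mean sox10 signals, 4.305 units in the controls and 39.28 units in the other group, were below the 50 units added there. Of the 4 crestin probes above background at 6 h, A_15_P731721 was lower (17.6, 16.0 and 14.7% against 11.3, 11.1 and 12.9%, log2 change -0.45 ± 0.12, limma adjusted p = 0.00868). Its mean signals before scaling were 73.54 units in the controls and 80.15 units in the other group, so they were not lower. The other 3 did not pass, with changes from -0.16 to 0.10. Each of them passed in 1 other setting, A_15_P267651 without replicate 3 of the 6 h controls (-0.30, adjusted p = 0.00563), and A_15_P728916 (-0.41, adjusted p = 0.0125) and A_15_P736536 (0.21, adjusted p = 0.0478) under the capped normexp correction.

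The morpholino effect itself differed between 24 h and 6 h for tyr, slc24a5 and pmela, whose brightest probes were above background in all 4 groups, by the fit's test of the difference. The effect was more negative at 24 h by 0.85 ± 0.14 for tyr, 0.78 ± 0.12 for slc24a5 and 1.92 ± 0.15 for pmela (log2, SE). Over all tested probes 46.4% were called in this test (24.5% lower, 21.9% higher). The fit also called tyrp1b and sox10, but tyrp1b was below background in both 6 h groups and sox10 in the 6 h controls, so no size is given for them here. The 2 comparisons use different arrays at each time, and no array is shared between them. Calls in this test changed under the normexp settings, which also add 50 units to every signal. Of the genes of the set, 5 were called lower in the main fit. Capped normexp gave 2 lower and 1 higher, and normexp without the cap gave 0 lower. The 6 h effect of pmela, which enters its difference, was -0.06 under capped normexp.

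In the control embryos, 6 of the 8 genes were higher at 24 h than at 6 h on their brightest probe, and tyr and crestin were lower. By probe, 13 of 16 were higher at 24 h, 2 lower and 1 not passed. Over all tested probes, 90.1% were called in this comparison, with 45.5% higher and 44.6% lower. The tyrp1b signal was at least 422-fold higher at 24 h, mitfa at least 11-fold, sox10 at least 184-fold on its brighter probe and the dimmer pmela probe at least 9.78-fold, each against 6 h arrays below background. The brighter pmela probe rose by 6.92 on the log2 scale, slc45a2 by 4.36, and slc24a5 by 1.29 and 2.21 on its 2 probes (limma adjusted p at most 3.79e-06). For the 2 slc24a5 probes, 31.7% and 22.6% of all tested probes rose by at least as much.

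The tyr probe, 1 of the 2 that were lower, was already above background at 6 h and fell by 0.26 ± 0.10 on the log2 scale (limma adjusted p = 0.0256). Its mean control signals before scaling were 28.44 units at 6 h and 44.61 units at 24 h, so only the relative signal fell. The dimmer tyr probe had 0.383, 0.377 and 0.430% at 6 h and 1.07, 1.51 and 1.48% at 24 h in the controls, but was not tested. Its relative readings thus rose while those of the tested probe fell. Whether the tested tyr probe reads the transcript of pigment cells alone was not tested. Each of the 3 control slides held a 6 h and a 24 h array. Within these slides the tyr change was -0.34, -0.18 and -0.26, and the tyrp1b change 10.95, 10.82 and 10.67, on the log2 scale.

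With the PCSK7 and p53 morpholinos the same probes moved between 6 h and 24 h, 13 higher, 2 lower and 1 not passed, where 89.8% of all tested probes were called (45.2% higher, 44.6% lower). The rise was at least 258-fold for tyrp1b and at least 14.4-fold for mitfa, from a mean of 7.90% to one of 253.8% for the brighter pmela probe, 17.4-fold for slc45a2, and 1.43-fold and 1.75-fold for the 2 slc24a5 probes. The tyr probe fell by 1.11 ± 0.10. All these arrays at 6 h shared 1 slide and those at 24 h another, so time and slide cannot be told apart in this group.

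Crestin probes fell into 2 kinds by their course over time. Probes A_15_P736536 and A_15_P267651 were bright at both times, at 1300, 1321 and 1058% and 1251, 1199 and 874.9% in the 6 h controls. At 24 h the first of them fell by 0.53 ± 0.10 on the log2 scale in controls (limma adjusted p = 0.000362), and the second differed by -0.02 ± 0.12, which did not pass (adjusted p = 0.871). The other 4 crestin probes rose in controls, by 2.55 and 2.53 on the log2 scale for A_15_P731721 and A_15_P728916, and by at least 6.17-fold and 8.08-fold for A_15_P210856 and A_15_P692851, which were below background at 6 h. The 1 crestin probe called higher at 24 h under the morpholinos is of the kind that did not rise with time. No probe of the rising kind passed at 24 h in the fit of all 12 arrays, but 2 of them did in other settings. A_15_P728916 was called higher with quantile normalization (adjusted p = 0.0394), with the slide as a random block (0.0415) and without replicate 3 of the PCSK7 and p53 group (0.56, adjusted p = 0.00735). A_15_P731721 was called lower with the slide as a random block (adjusted p = 0.0353) and without replicate 2 of that group (-0.42, adjusted p = 0.021).

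**Figure D3:**
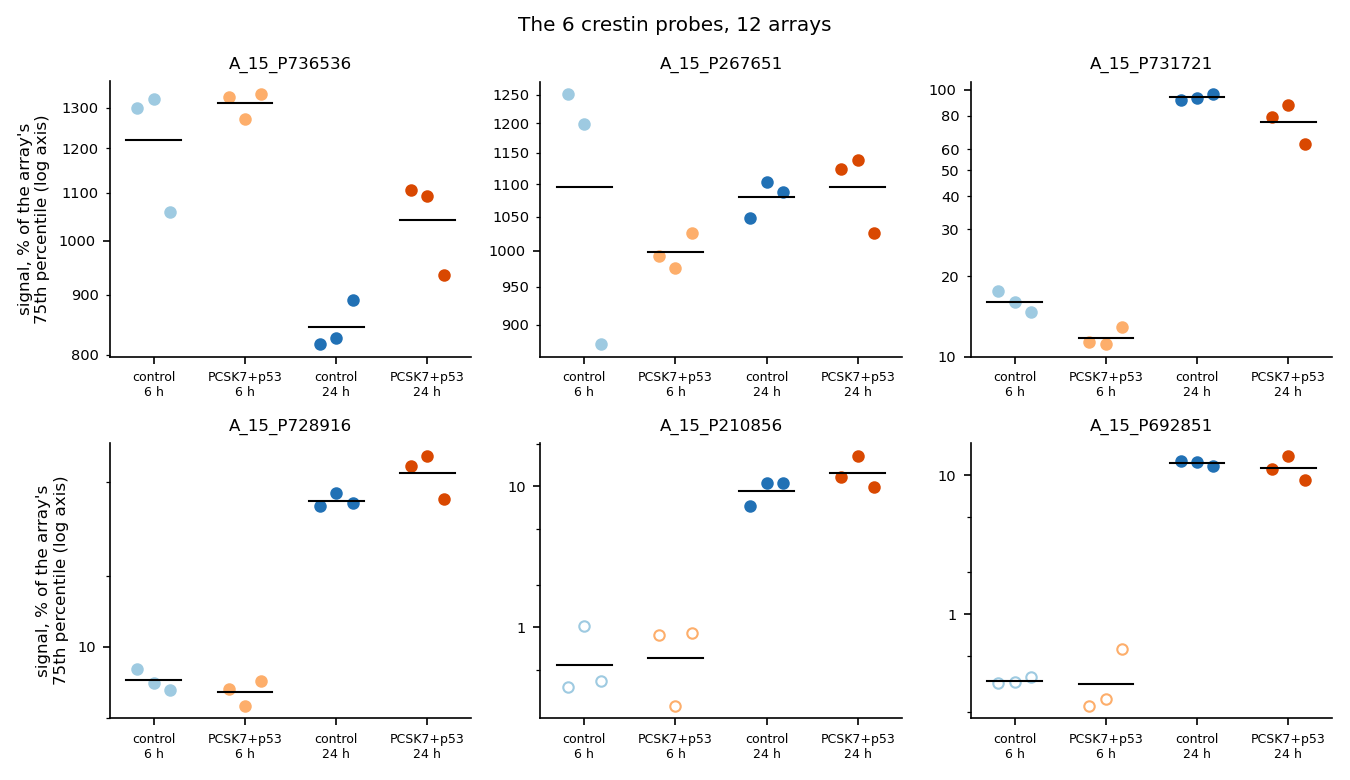
Relative signal of the 6 crestin probes (% of the array's 75th percentile, log axis, a different range in each panel) on 12 arrays, 3 in each group, with open points not well above background and lines at means of the log values. A_15_P736536 and A_15_P267651 stay above 800% at both times, while the other 4 are higher on all 24 h arrays than on any 6 h array.

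Markers of other cells that make melanin or sox10 were read beside these values, and each sum is led by its brightest probe. For the retinal pigment epithelium, 4 genes were listed as markers (rpe65a, rlbp1b, otx2b and tfec), all 4 above background at 24 h. Their summed relative signal ranged from 281.4 to 316.6% in the controls and from 281.7 to 311.6% with the PCSK7 and p53 morpholinos. Most of both sums was otx2b, at 237.5, 263.5 and 234.4% against 235.1, 258.9 and 261.1%, while rlbp1b read 2.54, 2.18 and 1.78% in the controls. Which cells carry the otx2b and rlbp1b signals was not tested, so these sums cannot be read as the amount of this tissue. None of these 4 passed the test at 24 h, but on the longer list of such markers given below rlbp1a and rpe65b (-0.69 ± 0.10, adjusted p = 0.000508) were lower. The summed signal of 4 measured melanophore markers (mitfa, tyrp1b, pmela and kita; dct has no probe) was 1150 to 1218% against 417.9 to 596.7%, but 3 of these are genes of the set. For the otic vesicle, another tissue with sox10, 4 markers summed to 903.1 to 1011% in the controls and to 1123 to 1242% in the other group, all 4 above background. The otolith gene oc90 made up most of these sums and did not pass (0.25, adjusted p = 0.16), while stm and pax2a were higher and otomp lower (-0.47, adjusted p = 0.0393). The stm signal was higher in the 6 h controls (860, 884 and 722.4%) than in the 24 h controls (85.73, 80.62 and 77.61%). It was already higher with the PCSK7 and p53 morpholinos at 6 h (0.88, limma adjusted p = 1.6e-05), and which cells carry it was not tested. The summed signal of 5 markers of migrating crest (sox10, crestin, foxd3, snai1b and tfap2a) was 2155 to 2330% against 2362 to 2555%. Of these, 2 are genes of the set, the crestin probe is the brightest one described above, and tfap2a was lower (-0.26, adjusted p = 0.0274) while foxd3 and snai1b were higher. In the 6 h controls the same sum was already 1556 to 1869%, with the crestin probe at 1300, 1321 and 1058%. Which cells carry these signals was not tested, so the crest sum cannot be read as the amount of migrating crest. The part of any of these tissues in the changes above was not tested.

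The gene lists below, like the set, were chosen with earlier results of these data known. Their shares and medians beside those of all named genes are therefore a description only. Other genes of the melanosome and of melanin regulation were read from a list of 27, of which 17 were measured. At 24 h, 9 of them were lower, 3 higher and 5 did not pass, with a median log2 change of -0.26; among all named genes measured, 25.8% were lower and 21% higher. The lower genes included pmelb, the second pmel gene of zebrafish (-1.06 ± 0.21, limma adjusted p = 0.00256), and mlpha, whose product ties melanosomes to the motor that carries them (-1.03 ± 0.14, adjusted p = 0.000263). The pmelb signal was 42.7, 47.3 and 44.6% in the controls and 15.1, 23.7 and 27.8% in the other group. The mlpha signal was higher in the 6 h controls (46.95, 51.57 and 46.41%) than in the 24 h controls (9.632, 10.58 and 11.74%). Which cells carry the mlpha signal was not tested. The higher genes included rab27a, a small GTPase that binds melanophilin (1.11 ± 0.09, adjusted p = 2.13e-05; 15.3, 19.9 and 19.0% against 37.0, 39.1 and 40.3%). The gene pomca, which encodes the precursor of melanocyte-stimulating hormone, was at least 1.35-fold higher (adjusted p = 0.00323), a call that was lost with the capped normexp correction (-0.10, adjusted p = 0.577).

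Signals and factors of the melanophore lineage, a list of 18 genes with 11 measured, had 4 lower, 0 higher and 7 that did not pass at 24 h in the limma fit, with a median of -0.14. That is 36.4% lower, against 25.8% lower and 21% higher among all named genes. At an unadjusted p under 0.05 the same list had 4 lower and 1 higher. The receptor kita, which melanophores need to migrate and survive, read 10.1, 12.3 and 11.7% in the controls and 5.30, 5.33 and 4.80% in the other group. The groups did not overlap (-1.14 ± 0.16, limma adjusted p = 0.00037), although only 1 of the 2 kita probes passed. The same kita probe was already lower at 6 h, at 14.7, 22.3 and 14.3% against 6.88, 5.73 and 6.82% (-1.37 ± 0.16, adjusted p = 5.63e-05). The AP-2 factor gene tfap2e read 252.3, 261.4 and 229.7% against 100.9, 127.5 and 147.7% (-0.999 ± 0.193, adjusted p = 0.0021). The endothelin receptor gene ednrba (-0.95 ± 0.23, adjusted p = 0.00675) and the Kit ligand gene kitlgb (-0.62 ± 0.22, adjusted p = 0.0384) were the others. The ednrba call was lost with quantile normalization (adjusted p = 0.149) and in the authors' deposited values (0.333), and the kitlgb call when any of the 24 h arrays was left out (0.0680 to 0.0980).

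The other 2 pigment cell types of the crest were read from 20 xanthophore and iridophore genes, of which 14 were measured. At 24 h, 8 were lower (57.1%, against 25.8% of all named genes), 1 was higher and 5 did not pass, with a median of -0.36. The pteridine enzyme gene gch2, which xanthophores use to make their yellow pigment, read 1192, 1080 and 1118% in the controls and 358.2, 501.5 and 551.9% in the other group. Its change of -1.29 ± 0.34 (limma adjusted p = 0.0118) had the same direction on all 5 gch2 probes, but the call was lost with quantile normalization (adjusted p = 0.0665) and in the authors' deposited values (0.121). The largest change in this list was that of slc22a7a (-1.70 ± 0.39, adjusted p = 0.00556), at 28.0, 29.8 and 26.9% against 5.79, 9.05 and 12.5%. The xanthophore sugar transporter gene slc2a15b (-0.86 ± 0.14, adjusted p = 0.00088) and the purine enzyme gene pnp4a, used by iridophores (-0.72 ± 0.21, adjusted p = 0.019), were lower as well. The pnp4a call was lost without 1 of 2 single arrays (adjusted p up to 0.066). Its signal was higher in the 6 h controls (77.55, 124.5 and 106.9%) than in the 24 h controls (27.18, 28.27 and 25.64%). The slc2a15b signal was 79.19, 69.64 and 86.63% in the 6 h controls and 98.6, 101.6 and 86.27% in the 24 h controls. With the PCSK7 and p53 morpholinos it was 50.32, 66.95 and 56.87% at 6 h. Which cells carry the pnp4a and slc2a15b signals was not tested.

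Genes that specify the crest showed no such one-sided count. Of 24 listed and 21 measured, 7 were higher at 24 h (33.3%), 5 lower (23.8%) and 9 did not pass, with a median of 0.21; among all named genes 21% were higher and 25.8% lower. The higher genes included snai1b (0.80 ± 0.16, limma adjusted p = 0.00254) and snai2 (0.60 ± 0.11, adjusted p = 0.00133, on 1 of its 4 probes), which drive crest cells to leave the neural tube. The snai1b call was lost with the capped normexp correction (0.16, adjusted p = 0.353), and the snai2 call when its probes were averaged (0.15, adjusted p = 0.208). They also included mycn (0.71 ± 0.07, adjusted p = 4.27e-05) and foxd3, an early crest factor (0.49 ± 0.08, adjusted p = 0.000832), whose signal was 239.2, 197.3 and 234.8% against 335.5, 309.3 and 298.0%. Among the lower genes was sox9a, a factor of crest-derived cartilage (-0.78 ± 0.20, adjusted p = 0.0088, on 1 of its 2 probes). The snai2 signal was higher in the 6 h controls (157.2, 165.5 and 136.1%) than in the 24 h controls (39.51, 38.89 and 40.63%). Which cells carry the snai2 signal was not tested.

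Genes of the neural plate border, where the crest forms, mostly did not pass at 24 h, when 1 of 14 was higher (irx1b, 0.38 ± 0.07), 2 were lower (msx1a and msx3, -0.28 ± 0.10 and -0.37 ± 0.12) and 11 did not pass. That is 7.14% higher and 14.3% lower, below the 21% and 25.8% of all named genes. Of the 2 probes each of irx1b and msx3 only 1 was called. The msx1a and msx3 calls were lost when single 24 h arrays were left out, with adjusted p up to 0.107 and 0.0969. At 6 h, 13 of the same 14 were above background in a group, and 8 of these were higher and 4 lower, with a median of 1.14. Of the 11185 named genes above background at 6 h, 35.5% were higher and 29.4% lower, with a median of 0.04. The border gene prdm1a, which zebrafish need for crest and sensory neurons, was below background in the 6 h controls (1.42, 1.29 and 0.821%) and above it with the PCSK7 and p53 morpholinos (22.9, 21.5 and 24.6%). It was at least 15.2-fold higher (limma adjusted p = 8.09e-08), and irx1b was higher by 2.14 ± 0.07 on the log2 scale (adjusted p = 3.73e-08) on 1 of its 2 probes. Of 14 crest specification genes above background in a group at 6 h, 3 were higher and 6 lower, with a median of -0.33. Among them id3 (1.77 ± 0.10, adjusted p = 5.33e-07) and cdh6 (1.39 ± 0.14, adjusted p = 2.27e-05) were higher.

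Lineages of the crest other than pigment cells had counts in both directions. Of 12 measured genes of the crest-derived skeleton and pharyngeal arches, 1 was higher at 24 h, 2 lower and 9 did not pass (8.33% higher and 16.7% lower, below the 21% and 25.8% of all named genes). The higher one was gsc (0.72 ± 0.15, limma adjusted p = 0.0031), a homeobox gene of the arches, and the lower ones were dlx4b (-0.60 ± 0.15, on 1 of its 2 probes) and col2a1a (-0.38 ± 0.11, on 1 of its 4 probes). The gsc signal was low in the 24 h controls (4.93, 3.78 and 4.41%) and far higher in the 6 h controls (620.1, 613 and 438.4%). It was already higher with the PCSK7 and p53 morpholinos at 6 h (1.18 ± 0.15, adjusted p = 8.89e-05). Which cells carry the gsc signal at 24 h was not tested. The gsc call was lost with the capped normexp correction (adjusted p = 0.253) and the col2a1a call with quantile normalization (adjusted p = 0.244). Of 14 measured genes of crest-derived neurons and glia, 2 were higher (14.3%), 3 lower (21.4%) and 9 did not pass, shares also below those of all named genes. The neuronal factor neurog1 was higher (0.67 ± 0.11, adjusted p = 0.00101), and the glial receptor gene erbb2 was lower (-1.22 ± 0.15, adjusted p = 0.000174). The erbb2 signal was 5.63, 5.541 and 4.549% in the 6 h controls and 5.258, 6.935 and 8.665% in the 24 h controls. It was already lower with the PCSK7 and p53 morpholinos at 6 h (-0.64 ± 0.15, limma adjusted p = 0.00461). Which cells carry the erbb2 signal was not tested. The glial gene plp1b, counted as lower, was lower on its brightest probe (-0.72 ± 0.10), but its other probe was called higher, so its probes contradict each other.

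Among 22 measured markers of the retinal pigment epithelium and the optic vesicle, 7 were higher at 24 h, 5 lower and 10 did not pass (median -0.08), which is 31.8% higher and 22.7% lower against 21% and 25.8% of all named genes. The visual cycle gene rlbp1a was lower (-1.08 ± 0.22, limma adjusted p = 0.00316; 44.5, 50.5 and 42.9% against 17.9, 23.7 and 24.2%; 2 of 3 probes called), and the opsin-like gene rgra was higher (0.87 ± 0.08, adjusted p = 2.41e-05). Among 11 measured otic vesicle markers, 4 were higher (36.4%), 2 lower (18.2%) and 5 did not pass (median 0.22), with otop1, needed for otoliths, at 0.98 ± 0.16 (adjusted p = 0.000733, 2 of 3 probes called).

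**Figure D4:**
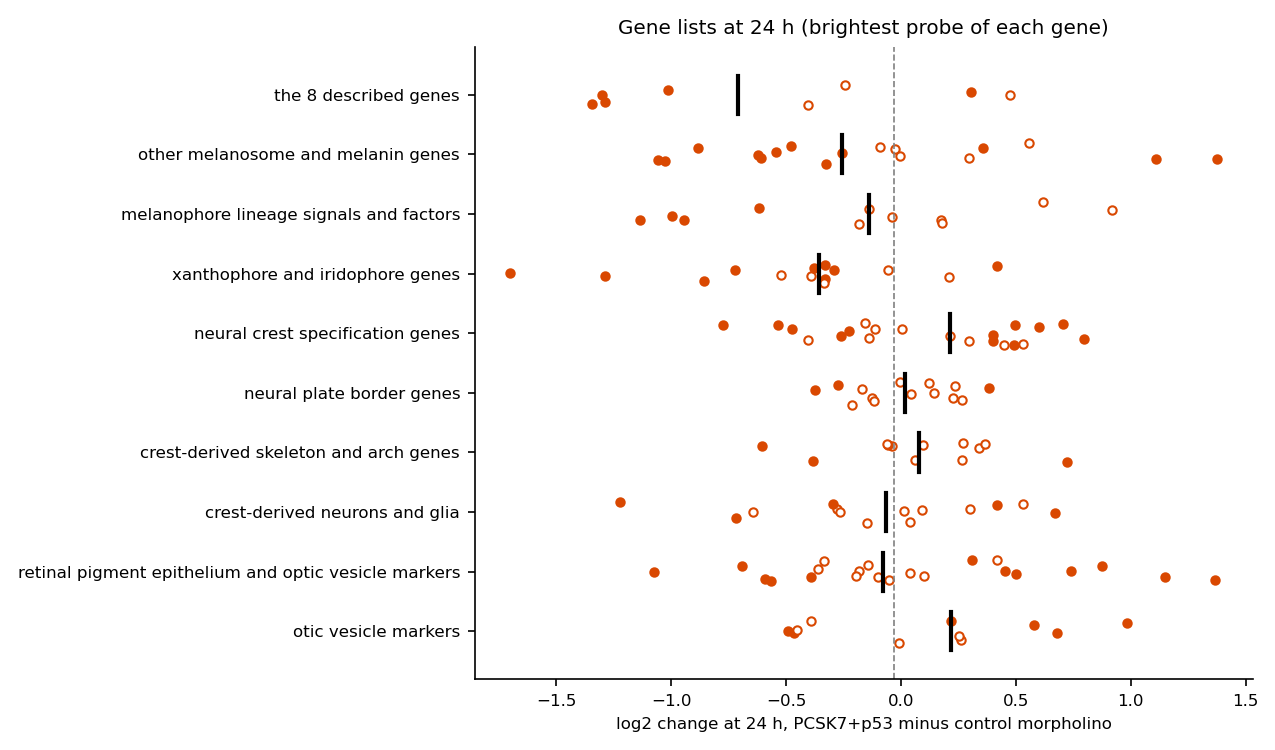
Log2 change at 24 h, PCSK7 and p53 morpholinos minus control morpholino, of each measured gene (brightest probe) in 10 gene lists. The lists were chosen with earlier results of these data known. Filled points passed the test, short lines are list medians and the dashed line is the median of all named genes (-0.03); the medians of the 8 genes of the set (-0.71), of the other melanosome genes (-0.26) and of xanthophore and iridophore genes (-0.36) lie to its left, and that of crest specification genes (0.21) to its right.

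At 6 h, counting genes above background in a group, the melanosome list had 3 higher and 6 lower of 15 (20% and 40%, against 35.5% and 29.4% of all named genes), with rab27a already higher (0.98 ± 0.09, limma adjusted p = 1.47e-05) and vps39, a subunit of a lysosome tethering complex, lower (-0.86 ± 0.07, adjusted p = 6.66e-06). The melanophore lineage list had 2 higher and 4 lower of 9. In it tfap2e was lower by 3.42 ± 0.19 on the log2 scale (adjusted p = 6.24e-07), at 11.3, 11.6 and 8.97% in the controls and 1.01, 0.753 and 1.25% in the other group, where 1 of 3 arrays was above background. The MITF relative tfec was at least 2.93-fold higher (adjusted p = 0.000199), a call that was lost with the capped normexp correction (-0.03, adjusted p = 0.808). Of 11 xanthophore and iridophore genes, 3 were higher and 6 lower. The receptor gene csf1ra was among the lower ones (adjusted p = 0.00191), at 2.28, 3.45 and 2.14% in the controls and 1.22, 0.280 and 0.404% in the other group. Only the first of these last 3 arrays was above background, so no size is given.

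The genes whose profile over the 12 arrays was most like the mean of the measured melanin genes were tuba8l4 (Pearson r = 0.9984), zgc:171452 (0.9975), rpl24 (0.9974), gli3 (0.9971) and si:dkey-30c15.13 (0.997), out of 12012 candidates. Most like the mean of sox10 and crestin were rab3c (0.9983), polr3k (0.9978), si:ch211-51h9.7 (0.9976), msrb3 (0.9976) and ndufs6 (0.9975). All candidates share these 12 arrays and the change from 6 h to 24 h, and 23.6% and 17.1% of them had r over 0.95 with the first and second profile. At 24 h the first 5 changed by -0.37, -1.32, -0.47, -1.01 and -1.29 on the log2 scale. With quantile normalization tuba8l4 turned to 0.06 and rpl24 came to -0.03, neither of them called.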

How the data were processed

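RNA of whole zebrafish embryos was labelled with Cy3 from 100 ng of total RNA and hybridised to 12 Agilent 1-colour arrays. The authors deposited scanner output of Agilent Feature Extraction, version 10.7.1 per the submitters' processing notes; per the file headers it was 10.7.1.1 for the 6 control arrays and 10.7.3.1, with a later annotation release, for the 6 PCSK7 and p53 arrays. It holds the processed signal, an intensity corrected for background within the array per the file headers, with the median spot and background intensity and other columns, the deposited flags for background, saturation and outliers. A deposited table of the authors' processed intensity values for 19838 probes was used as an alternative only; the sources used here do not give its normalization, and its column medians were all 172.128.

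Spots flagged as outliers were dropped, spots of a probe averaged, and log2 of the processed signal taken minus the 75th percentile of the array. A probe was tested if, in 1 group or more, all its spots passed the scanner software's background flag on each of the 3 arrays. limma 3.58.1 in R 4.3.3 fitted 1 mean per group over the 12 arrays (8 residual degrees of freedom), with two-sided tests and Benjamini-Hochberg adjustment over 36741 probes. Groups came from the labels. A gene stood by its brightest tested probe. Probes were named through RefSeq accessions of both annotation releases of the array, giving 26854 named and 16749 unnamed probes. The fold "at least N" sets the bright group against the lowest signal well above background on each dim array, or the probe's own reading where that was higher. Some probes above that lowest signal failed the background flag, so N is not a strict limit. The number of arrays limits the precision.

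The members and gene lists were chosen with earlier results of these data known. From each list, up to 4 genes with the largest change at 24 h and 2 at 6 h among those called could be named, with the set's genes and the marker genes. The fit was tested on simulated data with normal noise, where the spread of a probe was the same in all groups. Unequal spread between groups and effects of slide or session were not simulated, so that test does not cover them. Same-numbered samples did not deviate together (correlations from -0.042 to 0.016), so replicate numbers were not taken as pairs. The planned normexp alternative used median in place of mean spot signals. With and without the cap it added 50 units to every signal, which reduces the changes of dim probes before the arrays are scaled.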

Additional observations from a re-analysis of the deposited data

Results flagged for a closer look

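For 5 genes of the set and 3 genes of the lists, the morpholino effect at 24 h differed from that at 6 h by the fit's own test of the difference (limma, adjusted over all tested probes, n = 3 arrays in each of 4 groups). Such differences were common, with 46.4% of all tested probes called. The difference, 24 h minus 6 h on the log2 scale, was -0.85 for tyr (effects -1.29 and -0.43, adjusted p = 0.000693), -1.92 for pmela (-1.01 and 0.91, adjusted p = 1.34e-05), and -0.78 and -1.41 for the 2 slc24a5 probes (-1.30 and -0.52, -1.63 and -0.22, adjusted p = 0.00068 and 0.00576). It was -0.74 for tyrp1b (adjusted p = 0.0267), whose 6 h readings were all below background, so this value rests on unmeasured levels. It was -2.17 for sox10 (0.48 and 2.65, adjusted p = 0.000132), whose 6 h controls were below background as well.

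Of the genes named at both times, irx1b differed by -1.75 (0.38 and 2.14, adjusted p = 1.96e-06), erbb2 by -0.58 (-1.22 and -0.64, adjusted p = 0.04999) and tfap2e by 2.42 (-0.999 and -3.42, adjusted p = 9.18e-05, with 2 of 3 arrays below background at 6 h under the PCSK7 and p53 morpholinos). Only these genes and those of the set were searched for such differences. No cause was tested.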

How the results depend on the processing

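The genes tyr, tyrp1b, pmela and slc24a5 were called lower at 24 h in 23 of the 24 settings for which each gene's brightest probe had a value, with log2 changes between -0.31 and -1.48 over all of them, and the second slc24a5 probe in 21 of 22. The exception was the planned normexp correction, fitted to spot signals less their local background. On 3 arrays, each with 5 to 11 spots of local background over 100 units, its fitted background mean came to -910, -578 and -1110. It called 0 genes of the set lower and 0 higher at 24 h and at 6 h, and 0 lower in the difference of effects. Between the times it called 0 lower and 3 higher in controls and 0 lower with the PCSK7 and p53 morpholinos. Over all probes it called 0 lower and 0 higher at 24 h and in the difference, 18 and 18 at 6 h, 4085 and 4867 between times in controls, and 4923 and 6277 with the PCSK7 and p53 morpholinos. Capping the local background at 100 was chosen after seeing these results.

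The fit counted 4 genes lower at 6 h, of which tyrp1b and mitfa were below background at that time; the filter within the groups compared left 2. Against 4 genes lower at 24 h, only the groups compared gave 5 (with slc45a2) and leaving out 1 array 4 to 5. Against 1 gene higher at 24 h (crestin), the count was 2 (with sox10) under quantile normalization, capped normexp, the slide as a random block, only the groups compared and the authors' deposited table, and 0 for the mean of the probes; leaving out 1 array gave 0 to 2. Against 2 higher at 6 h, capped normexp and the mean of the probes gave 1. Against 5 genes lower and 0 higher in the difference, capped normexp gave 2 and 1, and leaving out 1 array 0 to 1 higher. Against 2 genes lower between the times in controls, the percentile over probes above background on all arrays and the mean of the probes gave 1, and leaving out 1 array 1 to 2; with the PCSK7 and p53 morpholinos the first 2 settings also gave 1 against 2.

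Over all probes, 9225 were lower and 7571 higher at 24 h, 11461 and 10449 at 6 h, 8996 and 8063 in the difference, 16373 and 16725 between times in controls and 16395 and 16590 with the PCSK7 and p53 morpholinos. The authors' deposited table, with 19838 probes, gave 3770 and 4080, 5641 and 4933, 4002 and 4434, 9844 and 7103, and 9581 and 7121. Capped normexp gave 19853 lower at 6 h and 5796 lower in the difference. Its share of calls that were higher was 37.6% at 24 h and 26% at 6 h, against 45.1% and 47.7%, and it moved the median of all probes to -0.12 and -0.29.

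Directions turned under capped normexp for pomca at 24 h (-0.10) and for tfec (-0.0322) and pmela (-0.0581) at 6 h. They turned for the mean of the probes in plp1b (0.21) and col2a1a (0.0353) at 24 h and in gart (-0.0887) and crestin (-0.10) at 6 h, and for tuba8l4 with quantile normalization (0.0597) and in the authors' deposited table (0.0334). They turned under uncapped normexp for mitfa (0.0119) and crestin probe A_15_P267651 (-0.0695) at 24 h, and at 6 h for tfec (-0.86), sox10 (-0.79), six3b (-0.70), pmela (-0.81), rab27a (-0.17), crestin probe A_15_P267651 (0.39), irx1b (-0.11) and eya1 (-0.67). Leaving out 1 array also turned probes not called in the full fit: crestin A_15_P267651 (-0.0083 to 0.0677) and A_15_P692851 (-0.2784 to 0.0162) at 24 h, and slc45a2 (-0.6553, then called lower, to 0.1129) and the second slc24a5 probe (-0.4822 to 0.0963) at 6 h. Except where an alternative's own construction shows it, the cause was not tested.

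With the replicate number as a block, the counts of genes of the set were as without it (4 lower and 1 higher at 24 h), 8638 and 7094 of all probes were called, and the dimmer pmela probe was called (adjusted p = 0.0315). Whether the labels' numbers pair samples was checked by their deviations, which were uncorrelated. Signal over background limits the 6 h values.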
